A study of Mus musculus with 16 samples.

Results

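The Krueppel-like factors (KLFs) are zinc finger transcription factors that bind GC-rich and CACCC-type promoter sequences. The 9 genes described here are Klf2, Klf3, Klf4, Klf6, Klf7, Klf9, Klf10, Klf11 and Klf13, chosen by symbol, and by Ensembl identifier where the deposited table held no symbols. They are 9 of 38926 genes in the table of metaphyseal and marrow endothelial cells (ECs), 9 of 21603 in the table of the Yap1/Taz experiment and 9 of 38922 in the table of the Lats2 experiment. All 9 members passed the expression filter, a mean of at least 1 FPKM (fragments per kilobase of exon, scaled to a fixed number of mapped reads), in each of the 3 comparisons.

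In endothelium, KLF2 and KLF4 are induced by laminar flow through the MEKK3, ERK5 and MEF2 pathway, and they raise anticoagulant and vasodilator genes such as Thbd and Nos3 and lower inflammatory and angiogenic ones such as Vcam1, Edn1 and Angpt2. KLF2, KLF4, KLF6 and KLF10 are also early-response genes whose transcripts move within a short time of a stimulus. KLF3 is a repressor that works with CtBP, KLF9 is a target of the glucocorticoid receptor, KLF10 and KLF11 are TGF-beta inducible repressors that recruit SIN3A, and KLF13 and KLF9 belong to the same SIN3A-binding branch. Several KLFs are also made by blood cells, KLF2 and KLF13 by lymphocytes and KLF4 by monocytes among them.

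RNA was sequenced from 16 libraries of FACS-sorted ECs of C57BL/6 mouse bone in 6 groups. The mpEC (n = 3, femoral metaphysis) and bmEC (n = 3, diaphyseal marrow cavity) libraries came from wildtype mice that carried the Cdh5-mT/nG reporter and were 3 weeks old. The Yap1/Taz experiment set 3 libraries labelled Yap1flx/flx and Wwtr1flx/flx with the Cdh5CreERT2 transgene against 3 Cre-negative controls with the same floxed alleles, all at postnatal day 21. The Lats2 experiment set 2 libraries labelled Lats2flx/flx with Cdh5CreERT2 against 2 Cre-negative Lats2flx/flx controls, with no age in their labels. The study's methods state that the ECs sequenced in this experiment also came from mice 3 weeks old. Tamoxifen was given to pups. Cdh5CreERT2 drives a tamoxifen-dependent Cre in vascular endothelium, so a floxed allele is lost only in cells that recombined it, and unrecombined cells stay in the sort. The study combined animals without regard to sex and states 3 biological replicates, although the Lats2 groups here hold 2 libraries each. The labels do not tie a library to 1 animal, so the p-values here measure the spread between libraries, which may be partly technical. In a bulk library, fewer cells of a type and less RNA per cell cannot be told apart.

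The depth recovered from the steps of the values was 11153337 to 14789369 reads per library for mpECs and bmECs, 4884993 to 7165410 for the Yap1/Taz experiment and 4737728 to 7079348 for the Lats2 experiment, and the members had between 57 and 4764 of these reads in a library. The EC marker Cdh5 lay between 106 and 276 FPKM in the means of all 6 groups. RNA of other cells was present: the hemoglobin gene Hbb-bs was the most abundant gene in all 6 mpEC and bmEC libraries, at 10589 to 22051 FPKM, and Klf1, the erythroid member of the family, averaged 68.7 FPKM in mpECs against 62.4 in bmECs. In the Yap1/Taz experiment 5 macrophage markers summed to 815 to 1146 FPKM in controls and 801 to 883 in the libraries labelled mutant. The 8 endothelial markers listed summed to 449 to 453 and 511 to 609 FPKM there. The part of RNA from other cells in the member values was not tested. In these RNA-seq values the targeted genes go against the labels in part. Wwtr1, which encodes Taz, was higher in the libraries labelled Yap1/Taz mutant (18.1 ± 2.48 FPKM, SD, n = 3) than in their controls (10.1 ± 0.240), with a log2 fold change of 0.78 (limma, adjusted p = 0.0272), and Yap1 was at 1.15 ± 0.245 against 1.23 ± 0.339 FPKM (adjusted p = 0.934). Lats2 was at 19.2 ± 0.0108 FPKM in the libraries labelled Lats2 mutant and 23.7 ± 0.471 in controls (adjusted p = 0.125, n = 2). A gene's value sums reads over all of its exons, so reads from exons outside the deleted part do not check the deletion. The cause of the higher Wwtr1 was not tested, and neither was whether the labels of the groups were swapped. Directions below are those of the libraries as labelled. The study itself reports lower Yap1 and Wwtr1 transcripts by qPCR and less Yap1 staining in its Yap1/Taz mutant bone ECs. It also reports a lower Lats2 transcript in its Lats2 mutant bone ECs.

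In mpECs the levels, which are per length and can be compared between genes, ran in the order Klf10, Klf6, Klf13, Klf4, Klf2, Klf7, Klf3, Klf11 and Klf9. Klf10 (83.6 ± 7.02 FPKM, SD, n = 3) and Klf6 (79.3 ± 12.4) overlapped with each other and stood apart from Klf13 (41.3 ± 2.52). Klf4 (25.5 ± 2.93 FPKM), Klf2 (22.7 ± 5.86), Klf7 (17.6 ± 1.88) and Klf3 (14.4 ± 1.86) each overlapped with the next, and Klf11 (7.26 ± 0.893) and Klf9 (7.16 ± 0.892) were lowest and overlapped. In bmECs only the lowest pair changed places. There Klf9 (10.2 ± 0.960 FPKM) stood above Klf11 (7.11 ± 1.10) with no overlap.

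The order was not that of the other tables. In the Yap1/Taz controls Klf6 (42.6 ± 3.02 FPKM) and Klf10 (37.7 ± 4.92) overlapped at the top, Klf13 was at 16.5 ± 3.07 FPKM beside Klf3 (17.03 ± 0.779), and Klf7 was last at 3.79 ± 0.0992 FPKM. In the Lats2 controls Klf2 led at 134 ± 13.4 FPKM (n = 2), ahead of Klf10 (94.1 ± 1.59) and Klf3 (72.9 ± 2.35), with Klf11 last at 5.77 ± 0.161. Klf2 thus ranged from 14.2 to 28.7 FPKM over the mpEC and bmEC libraries, from 20.3 to 26.4 over the Yap1/Taz libraries and from 124 to 143 over the Lats2 libraries. The 3 tables were normalized separately and each holds its own experiment, so these gaps between tables were not tested.

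**Figure D1:**
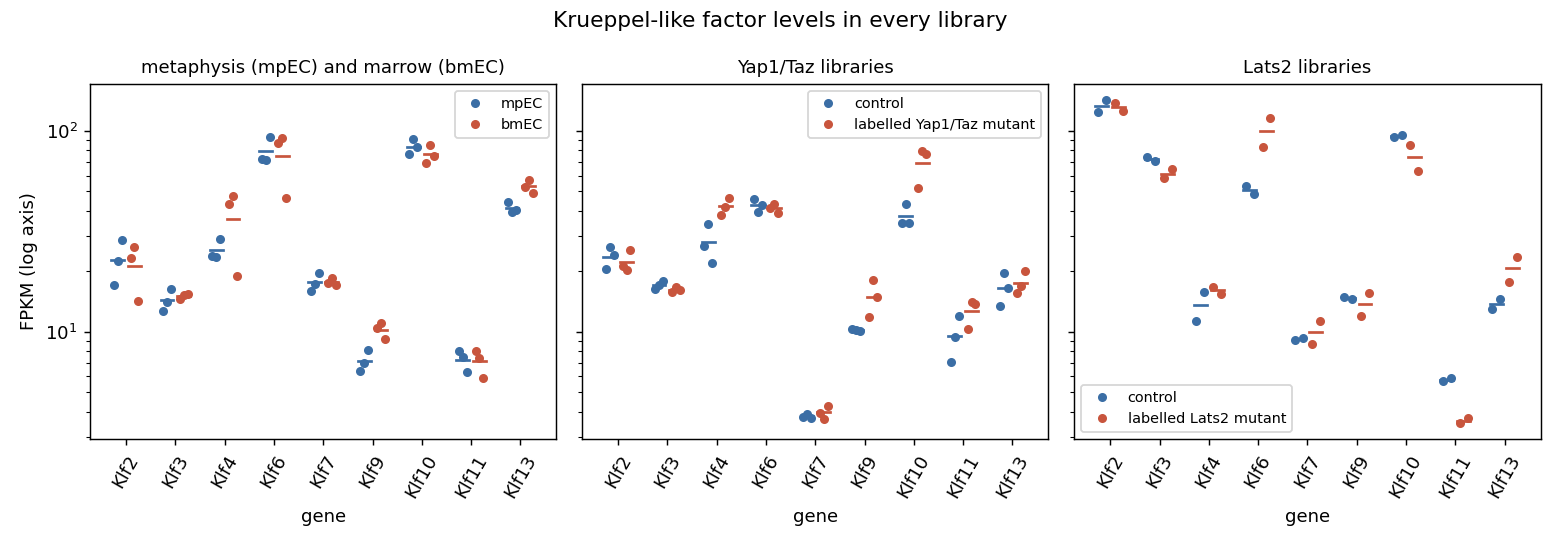
FPKM (log axis) of the 9 Krueppel-like factors in each of the 16 libraries, one point per library and a line at the group mean, for mpECs and bmECs, the Yap1/Taz experiment and the Lats2 experiment. Klf6 and Klf10 are among the 4 highest members in every group, and Klf2 and Klf3 lie higher in the Lats2 table than in the other tables.

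The promoters of 5 members are shown with the letter strings for MEF2, hypoxia-inducible and KLF-type factors that a search found in them. RefSeq promoter windows (GRCm38.p6), from 250 bases before to 50 after the start site, were matched for 8 of the 9 members; Klf10 had no entry. The stretch before the start site is printed, in the direction of the gene, up to the first annotated transcribed base. Capitals mark a MEF2 site in Klf2, the letters ACGTG (the core of a hypoxia response element) in Klf4, Klf6 and Klf9, and the letters CACCC (a KLF-type box) in Klf9 and Klf13, each searched on both strands.
Klf2, chr8:72318812-72319032, plus strand: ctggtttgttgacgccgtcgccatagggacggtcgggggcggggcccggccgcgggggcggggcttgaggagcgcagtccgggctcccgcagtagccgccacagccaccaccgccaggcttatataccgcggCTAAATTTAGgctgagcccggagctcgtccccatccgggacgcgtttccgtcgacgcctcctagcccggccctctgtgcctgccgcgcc
Klf4, chr4:55532476-55532725, minus strand: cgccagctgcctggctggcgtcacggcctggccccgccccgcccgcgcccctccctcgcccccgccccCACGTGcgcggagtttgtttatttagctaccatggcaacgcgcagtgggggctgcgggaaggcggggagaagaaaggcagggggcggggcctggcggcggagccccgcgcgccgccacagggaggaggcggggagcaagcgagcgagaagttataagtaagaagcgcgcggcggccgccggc
Klf6, chr13:5861239-5861481, plus strand: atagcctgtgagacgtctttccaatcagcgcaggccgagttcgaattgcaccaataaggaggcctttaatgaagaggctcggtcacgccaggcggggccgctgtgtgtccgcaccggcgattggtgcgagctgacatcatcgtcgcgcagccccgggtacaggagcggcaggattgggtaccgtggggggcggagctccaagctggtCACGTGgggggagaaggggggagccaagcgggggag
Klf9, chr19:23140976-23141225, plus strand: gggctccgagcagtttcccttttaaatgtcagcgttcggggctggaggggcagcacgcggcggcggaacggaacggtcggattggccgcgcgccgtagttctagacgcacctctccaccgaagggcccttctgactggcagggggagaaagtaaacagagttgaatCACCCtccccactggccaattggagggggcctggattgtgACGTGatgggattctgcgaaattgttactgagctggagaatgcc
Klf13, chr7:63938916-63939165, minus strand: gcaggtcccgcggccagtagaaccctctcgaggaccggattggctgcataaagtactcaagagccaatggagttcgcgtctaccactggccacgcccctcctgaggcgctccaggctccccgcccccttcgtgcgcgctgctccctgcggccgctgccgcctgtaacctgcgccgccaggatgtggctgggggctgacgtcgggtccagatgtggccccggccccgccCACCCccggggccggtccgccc

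The MEF2 site, for the factor that ERK5 acts on, was found in 1 of the 8 member windows, that of Klf2 at position -118 from the start site, and in 3.19% of 32851 promoter windows. ACGTG was found in 4 of 8 (Klf4, Klf6, Klf9 and Klf11) and in 19.6% of all windows. In Klf4, Klf6 and Klf11 the forward and reverse matches overlap, so each is a single palindromic site. CACCC was found in 5 of 8 and in 57.5% of all windows. GGAATG, a letter string for TEAD factors, the partners of Yap1 and Taz, was in 0 of 8 and 14.7% of all windows, and the CArG box of serum response factor in 0 of 8 and 1.63%. A match is a string of letters and no evidence of binding.

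The comparison of bmECs with mpECs asks how the ECs of the marrow differ from those of the metaphysis. Klf9 and Klf13 were higher in bmECs, and the other 7 members did not pass the test. Klf9 was at 6.40, 6.94 and 8.14 FPKM in the mpEC libraries and at 10.4, 11.1 and 9.19 in the bmEC libraries. Every bmEC library lay above every mpEC library, and the log2 fold change was 0.46 ± 0.12 (SE, limma on log2(FPKM + 1), adjusted p = 0.0243). The gene lies at chr19:23141226-23168134 (GRCm38, plus strand).

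Klf13 (chr7:63886351-63938915, minus strand) was at 44.2, 39.5 and 40.2 FPKM in mpECs and at 52.7, 57.0 and 49.1 in bmECs. The groups again did not overlap, with a log2 fold change of 0.35 ± 0.09 (SE, limma, adjusted p = 0.0240). The 2 members called higher are read against 13% of the 11422 genes tested that were called higher in bmECs and 10.5% called lower. Likewise 2 members did not overlap, both higher, where 22.1% of all genes did not overlap and were higher and 19.2% were lower. No member was called lower, by limma, by limma-voom or at an unadjusted p under 0.05. The median log2 fold change of the 9 members was 0.01, and that of all genes tested -0.00068. With the direction kept, the Klf9 call was lost without mpEC replicate 1 or 2 or bmEC replicate 1 or 2 (adjusted p between 0.0633 and 0.0841), and the Klf13 call without mpEC replicate 2 or 3 or bmEC replicate 1 or 2 (adjusted p between 0.0706 and 0.0888). At the stricter threshold of the study's methods, which takes an adjusted p under 0.01 together with a log2 change of more than 0.5 either way, no member passed, against 11.7% of all genes.

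The flow-responsive pair did not pass the test. Klf2 (chr8:72319033-72321656, plus strand) was at 17.001, 22.5 and 28.7 FPKM in mpECs and 23.4, 26.4 and 14.2 in bmECs, overlapping throughout (log2 fold change -0.10 ± 0.25, limma, adjusted p = 0.806). Klf4 (chr4:55527143-55532466, minus strand) was at 23.9, 23.6 and 28.8 FPKM in mpECs and at 43.4, 47.6 and 18.9 in bmECs. The highest and the lowest Klf4 values of the 6 libraries were thus both in bmECs, and the log2 fold change was 0.41 ± 0.31 (adjusted p = 0.380). Klf6 (chr13:5861482-5870394, plus strand), an early-response activator linked to vascular injury, was at 72.5, 71.8 and 93.7 FPKM in mpECs and at 87.5, 92.6 and 46.4 in bmECs (log2 fold change -0.12 ± 0.25, adjusted p = 0.762). Its lowest value was in a bmEC library and its highest in an mpEC library, and the groups overlapped.

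bmEC replicate 3 gave the lowest value of all 6 libraries for Klf2, Klf4, Klf6 and Klf11, and the lowest of the 3 bmEC libraries for 7 of the 9 members (77.8%), against 39.3% of all genes tested. Immediate early genes are induced by stimuli that include tissue handling, and the list here also holds the heat shock genes Hspa1a and Hspa1b. The genes of this list were lowest in the same library for 16 of 16 tested. Their summed level over 18 genes was 1067, 1086 and 1553 FPKM in mpECs but 3296, 3927 and 1220 in bmECs, and Fos alone was at 995, 1249 and 242 FPKM in bmECs. This library was singled out after its values were seen, and the part of these genes in the result was not tested. Without bmEC replicate 3 the log2 fold change of Klf4 was 0.82 (limma, adjusted p = 0.00477), that of Klf6 0.19 (adjusted p = 0.357) and that of Klf2 0.16 (adjusted p = 0.631). Klf9 and Klf13 kept their calls without it (adjusted p = 0.0283 and 0.0255).

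**Figure D2:**
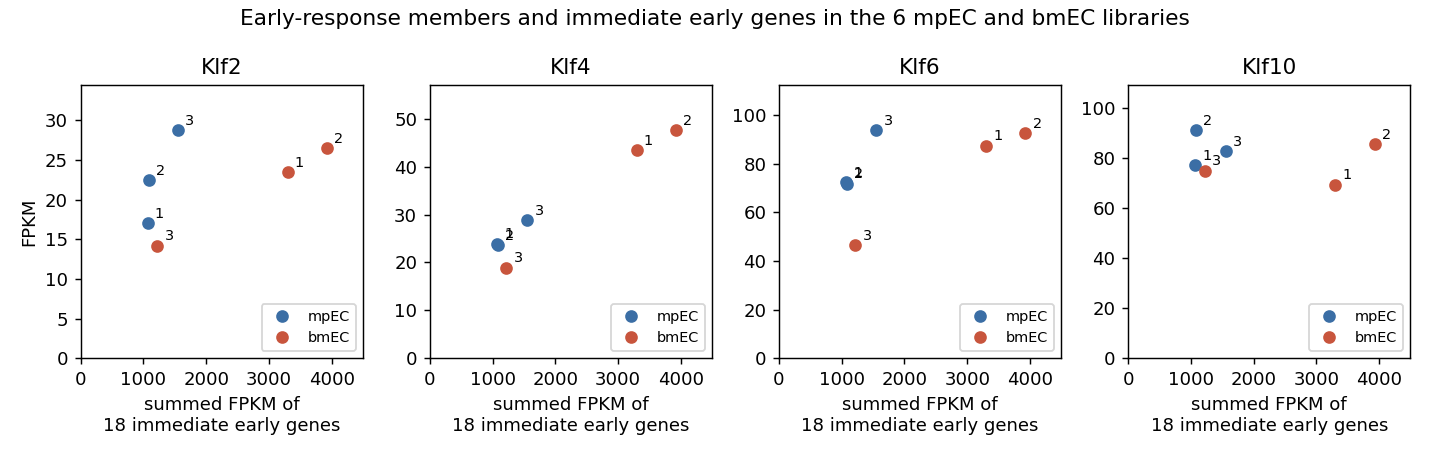
FPKM of Klf2, Klf4, Klf6 and Klf10 (vertical axes) against the summed FPKM of 18 immediate early genes (horizontal axis) in the 6 mpEC and bmEC libraries, each point a library marked with its replicate number. bmEC replicate 3 lies at 1220 on the horizontal axis, apart from the other bmEC libraries at 3296 and 3927, and has the lowest Klf2, Klf4 and Klf6. Its Klf10 is not the lowest, at 74.9 FPKM against 69.3 in bmEC replicate 1.

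Klf10 (chr15:38291463-38300706, minus strand) was at 77.1, 91.0 and 82.8 FPKM in mpECs and 69.3, 85.6 and 74.9 in bmECs (log2 fold change -0.13 ± 0.10, adjusted p = 0.421). Its relative Klf11 (chr12:24651274-24662789, plus strand) was between 5.89 and 8.04 FPKM in all 6 libraries (adjusted p = 0.904). Klf3 (chr5:64803388-64832901, plus strand) had 12.7 to 16.4 FPKM in mpECs and 14.6 to 15.5 in bmECs (adjusted p = 0.659). Klf7 (chr1:64029447-64122282, minus strand), known for its role in neurons, had 16.01 to 19.7 and 17.1 to 18.4 FPKM (adjusted p = 0.963). For Klf7, 39.4% of the exonic bases lie opposite exons of antisense genes, and for Klf3 3.59%, and whether the counting used strand is not given in the sources used here, so antisense reads cannot be told apart.

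Genes that KLF2 and KLF4 are known to regulate moved in both directions between the regions, while Klf2 and Klf4 themselves did not pass the test. Of 8 tested genes of the induced list, 4 were higher in bmECs and 2 lower. The metalloprotease gene Adamts5 rose from 49.7 ± 6.47 to 212 ± 10.4 FPKM (adjusted p = 2.48e-05), Thbd, the thrombomodulin gene, from 271 ± 28.0 to 666 ± 55.0 (adjusted p = 0.000142) and the water channel gene Aqp1 from 192 ± 30.8 to 347 ± 79.3 (adjusted p = 0.0148). Ass1, of arginine synthesis, fell from 12.6 ± 2.16 to 4.78 ± 0.558 FPKM (adjusted p = 0.000666), and Nos3, the endothelial nitric oxide synthase gene, from 5.72 ± 1.37 to 1.88 ± 0.626 (adjusted p = 0.00357). Of 5 tested genes of the repressed list, the adhesion molecule genes Sele (55.1 to 229 FPKM, adjusted p = 9.29e-05) and Vcam1 (322 to 1106, adjusted p = 0.000832) were higher in bmECs, and Edn1, the endothelin gene, was lower (8.16 to 1.01, adjusted p = 0.000502). The median log2 fold change was 0.06 over the 8 induced and 0.07 over the 5 repressed genes.

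Among 11 tested genes upstream of KLF2 and KLF4, Map3k3, which encodes MEKK3, was higher in bmECs (8.76 to 11.2 FPKM, adjusted p = 0.0403) and Heg1, a receptor of the CCM pathway that restrains it, was lower (38.8 to 24.7, adjusted p = 0.00372). Of 8 tested KLF cofactors, Wwp1, a ubiquitin ligase for KLF proteins, was higher (6.10 to 8.68 FPKM, adjusted p = 0.0216) and Sap30, of the SIN3A complex, was lower (8.36 to 3.57, adjusted p = 0.00440). Beside Klf9, 4 glucocorticoid-responsive genes were tested. Fkbp5 (7.21 to 12.4 FPKM, adjusted p = 0.00469) and the receptor gene Nr3c1 (12.6 to 20.7, adjusted p = 0.0106) were higher, and Tsc22d3 was lower (59.9 to 38.9, adjusted p = 0.00677). Of 16 immediate early genes tested, limma and limma-voom each called 4 higher and 0 lower, and at an unadjusted p under 0.05 in limma 6 were higher and 0 lower. Those with the largest fold changes among limma's calls were Socs3 (5.19 to 15.9 FPKM, adjusted p = 0.0207), Jun (126 to 326, adjusted p = 0.0463) and Ier3 (15.7 to 39.6, adjusted p = 0.0135). None of 6 tested other KLF and SP genes passed limma's test, and 0 had an unadjusted p under 0.05 or passed limma-voom on recovered reads, the other tool run.

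Markers of other cells moved with the region in part. Osteoblast markers were lower in bmECs in 2 of 4 tested genes, with Bglap at 185 against 2.27 FPKM, and the summed level of the 6 listed was 108 to 521 FPKM in mpECs and 41.1 to 52.5 in bmECs. The stromal gene Lepr was higher, as 1 of 4 tested pericyte and stroma genes (summed level 46.9 to 51.1 FPKM in mpECs and 29.3 to 69.5 in bmECs). No tested gene passed among 6 erythroid, 5 B cell, 6 neutrophil, 4 macrophage, 4 megakaryocyte and 1 T cell markers, whose summed levels overlapped between the regions. At an unadjusted p under 0.05 in limma, 1 erythroid gene was higher and 1 B cell and 3 neutrophil genes were lower, and limma-voom on recovered reads called 1 erythroid gene higher. Of 8 endothelial markers 3 were higher and 3 lower in bmECs. No marker of these lists was at 0 in every library. The part of these markers in the Klf9 and Klf13 results was not tested.

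In the Yap1/Taz experiment, which asks what the loss of the Hippo pathway effectors does to bone ECs, Klf10 was the 1 member called. Klf10 was at 34.9, 43.4 and 34.8 FPKM in the controls and at 51.8, 79.5 and 76.4 in the libraries labelled Yap1/Taz mutant. The groups did not overlap, and the log2 fold change was 0.84 ± 0.16 (SE, limma, adjusted p = 0.0423). The background was low: 0.883% of the 11320 genes tested were called higher and 0.424% lower. The call was lost without any 1 of the 3 controls and without labelled mutant replicate 2 or 3 (adjusted p between 0.0740 and 0.209), while without labelled mutant replicate 1, which had the lowest Klf10 of its group, the log2 fold change was 1.04 (adjusted p = 0.00744).

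Klf4 and Klf9 also did not overlap between the groups but were not called. Klf4 was at 26.9, 34.5 and 22.1 FPKM in controls and 38.3, 42.0 and 46.1 in the libraries labelled mutant (log2 fold change 0.60 ± 0.15, adjusted p = 0.0785). On reads recovered from the values, limma-voom gave Klf4 an adjusted p of 0.0408. The study placed Klf4 in a panel of hypoxia targets chosen on these samples, so its direction here is not independent evidence. Klf9 was at 10.3, 10.2 and 10.1 FPKM in controls and 11.8, 18.1 and 14.9 in the libraries labelled mutant (log2 fold change 0.49 ± 0.14, adjusted p = 0.112). The 3 members that did not overlap and were higher compare with 12.3% of all genes, and 0 members with 11.3% that were lower. At an unadjusted p under 0.05, 4 members were higher and 0 lower, and limma-voom called 2 higher and 0 lower. The share of all genes at these settings was not counted, so these counts cannot be read against a background.

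The remaining members overlapped. Klf11 was at 7.03, 9.45 and 11.9 FPKM in controls and 10.3, 14.0 and 13.8 in the libraries labelled mutant (log2 fold change 0.40 ± 0.18, adjusted p = 0.274). Klf2 was at 20.4, 26.4 and 24.2 FPKM against 21.2, 20.3 and 25.4 (log2 fold change -0.08 ± 0.13, adjusted p = 0.787). Klf6 lay between 39.2 and 45.6 FPKM in all 6 libraries (adjusted p = 0.879), Klf13 between 13.4 and 20.1 (adjusted p = 0.803), Klf3 between 15.7 and 17.8 (adjusted p = 0.755) and Klf7 between 3.67 and 4.27 (adjusted p = 0.875). The median log2 fold change was 0.09 over the members and -0.0047 over all genes tested. At the stricter threshold no member passed, against 0.00883% of all genes.

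Labelled mutant replicate 1 had the lowest Klf3, Klf4, Klf9, Klf10, Klf11 and Klf13 of its group. It was singled out after its values were seen. The share of all genes that were lowest in it was not counted, so this pattern cannot be read against a background. This library also had the fewest recovered reads of its group, 4884993. Its summed immediate early level was 3069 FPKM, against 3812 and 4026 in the other labelled mutants and 2915 to 3094 in controls. Of 18 genes tested from the immediate early list, the heat shock gene Hspa1b (3.61 to 7.06 FPKM, adjusted p = 0.0461) and Socs3 (40.0 to 68.9, adjusted p = 0.0406) were higher in the libraries labelled mutant by limma, which called 0 lower. At an unadjusted p under 0.05, 8 were higher and 1 lower, and limma-voom called 4 higher and 1 lower. The part of these genes in the Klf10 result was not tested.

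None of the 8 induced and 4 repressed targets of KLF2 and KLF4, the 13 upstream genes, the 9 cofactors, the 6 glucocorticoid-responsive genes or the 9 other KLF and SP genes tested passed limma's test. At an unadjusted p under 0.05, 6 of the 8 induced genes were higher and 1 lower, and limma-voom on recovered reads called 3 of them higher. For the other lists the unadjusted counts were 1 higher of 4 repressed, 2 higher and 1 lower of 13 upstream, 1 lower of 9 cofactors, 1 higher of 6 glucocorticoid-responsive and 2 higher of 9 other KLF and SP genes, and limma-voom called 1 glucocorticoid-responsive gene. The induced list had a median log2 fold change of 0.43 and the repressed list one of -0.01. Nos3, for instance, was at 10.2, 10.2 and 8.17 FPKM in controls and 14.0, 12.9 and 14.8 in the libraries labelled mutant, without overlap (adjusted p = 0.0654). Of the marker lists, 2 of 4 osteoblast genes tested were lower, Col1a1 (20.9 to 5.41 FPKM) and Bglap (2.07 to 0.418), with a summed level of 27.6 to 34.6 FPKM in controls and 8.58 to 17.4 in the libraries labelled mutant. The platelet gene Ppbp was higher (2.22 to 6.76 FPKM) as 1 of 4 megakaryocyte genes, whose summed level was 145 to 165 and 159 to 183 FPKM. The endothelial markers had 0 of 8 called and a summed level of 449 to 453 against 511 to 609 FPKM, with 7 of 8 higher at an unadjusted p under 0.05 and 2 by limma-voom. The B cell markers had 0 of 5 called and a summed level of 249 to 301 against 209 to 215 FPKM, with 5 of 5 lower at an unadjusted p under 0.05 and 0 by limma-voom. No erythroid, neutrophil, macrophage or pericyte gene passed limma's test (at an unadjusted p under 0.05, 1 macrophage gene was lower, and 1 pericyte gene was higher, which limma-voom also called, and 1 lower), no T cell gene was tested, and the part of any marker in the Klf10 result was not tested.

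**Figure D3:**
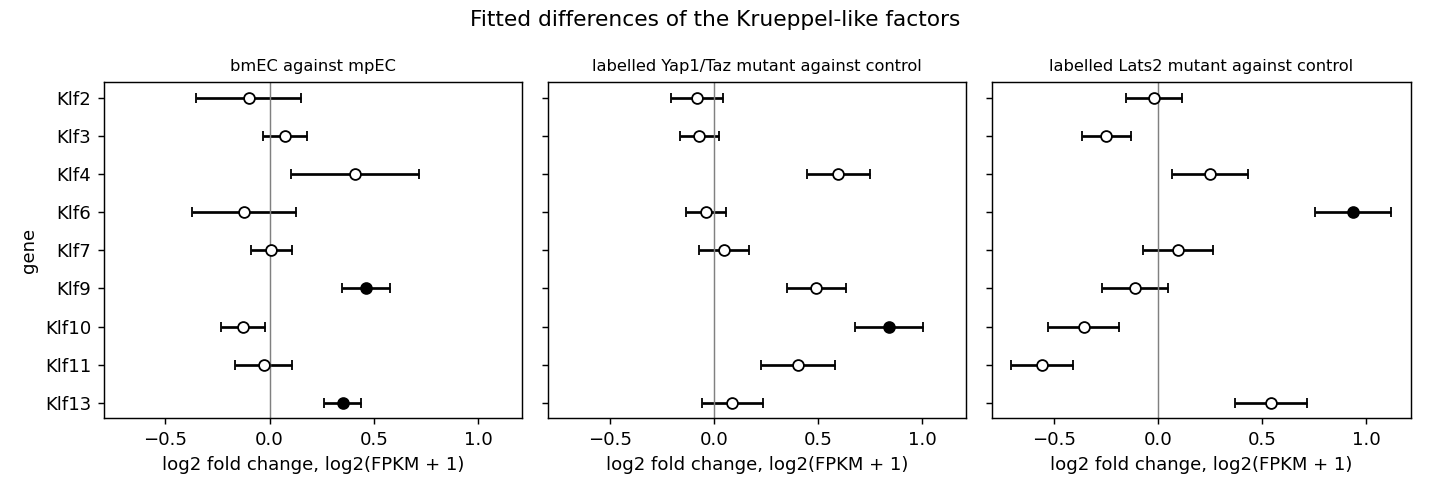
Fitted log2 fold change on the log2(FPKM + 1) scale of each Krueppel-like factor in the 3 comparisons, with bars of 1 SE and filled points where the adjusted p is under 0.05. Filled points are Klf9 and Klf13 for bmECs, Klf10 for the libraries labelled Yap1/Taz mutant and Klf6 for the libraries labelled Lats2 mutant.

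In the Lats2 experiment, where the kinase that restrains Yap1 and Taz was targeted, Klf6 was the 1 member called. Klf6 was at 53.3 and 48.8 FPKM in controls and at 83.6 and 116 in the libraries labelled Lats2 mutant. Both labelled mutants lay above both controls, with a log2 fold change of 0.94 ± 0.18 (SE, limma, adjusted p = 0.0261, n = 2). Of 12451 genes tested, 11.8% were called higher and 9.98% lower. Leaving out either control or labelled mutant replicate 2 ended the call (adjusted p between 0.0555 and 0.193), and without labelled mutant replicate 1 it stayed (adjusted p = 0.0216).

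Klf13 was not called, at 12.99 and 14.5 FPKM in controls and 17.8 and 23.6 in the libraries labelled mutant (log2 fold change 0.54 ± 0.17, adjusted p = 0.0808). Klf11 was at 5.66 and 5.88 FPKM in controls and 3.51 and 3.71 in the libraries labelled mutant (log2 fold change -0.56 ± 0.15, adjusted p = 0.0530). Its relative Klf10 was at 92.9 and 95.2 FPKM against 85.3 and 62.9 (log2 fold change -0.36 ± 0.17, adjusted p = 0.195), and Klf3 at 74.6 and 71.3 against 58.4 and 64.3 (log2 fold change -0.25 ± 0.12, adjusted p = 0.189). So 2 members did not overlap and were higher, and 3 were lower. With 2 libraries a group this is common, and 34% of all genes did not overlap and were higher and 34.2% were lower. limma-voom on recovered reads called Klf13 higher (adjusted p = 0.0453) and Klf11 lower (adjusted p = 0.0494). The share of all genes that limma-voom called was not counted, so these calls cannot be read against a background.

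Klf2, the most abundant member here, was at 124 and 143 FPKM in controls and at 138 and 125 in the libraries labelled mutant (log2 fold change -0.02 ± 0.13, adjusted p = 0.935). Klf4 was at 11.3 and 15.8 against 16.8 and 15.5 FPKM (log2 fold change 0.25 ± 0.18, adjusted p = 0.363). Klf9 was between 11.9 and 15.5 FPKM (adjusted p = 0.652) and Klf7 between 8.66 and 11.4 (adjusted p = 0.700) in all 4 libraries, with overlap. The median log2 fold change was -0.02 over the members and -0.0031 over all genes tested. At the stricter threshold no member passed, against 2.06% of all genes.

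Targets of KLF2 and KLF4 changed widely in the libraries labelled Lats2 mutant, in both directions. Of 8 induced genes tested, S1pr1, a sphingosine phosphate receptor gene (169 ± 2.53 to 271 ± 31.9 FPKM, adjusted p = 0.0279), and Nos3 (54.7 ± 8.56 to 83.2 ± 1.72, adjusted p = 0.0409) were higher. Adamts5 (61.6 ± 3.90 to 8.49 ± 1.65 FPKM, adjusted p = 0.00574), Thbd (542 ± 6.08 to 141 ± 27.2, adjusted p = 0.00759) and the angiopoietin receptor gene Tek (214 ± 1.08 to 86.0 ± 29.4, adjusted p = 0.0217) were lower. Of 5 repressed genes tested, 3 were higher and 2 lower. Angpt2, an angiopoietin gene, was at 8.06 and 8.15 FPKM in controls and at 172 and 478 in the libraries labelled mutant (log2 fold change 4.98 ± 0.47, adjusted p = 0.00817). Edn1 was at 1.89 and 3.66 FPKM against 56.0 and 129 (log2 fold change 4.55 ± 0.44, adjusted p = 0.00900), and the chemokine gene Ccl2 had means of 2.55 and 35.0 FPKM (adjusted p = 0.0229). Sele (156 to 22.2 FPKM, adjusted p = 0.0120) and Vcam1 (525 to 71.0, adjusted p = 0.00913) were lower. The median log2 fold change was 0.55 over the induced and 3.21 over the repressed genes.

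Of 13 upstream genes tested Heg1 was the 1 that passed limma's test, and it was higher (11.2 to 17.1 FPKM, adjusted p = 0.04999). At an unadjusted p under 0.05, 3 were higher and 2 lower, and limma-voom on recovered reads called 1 higher and 2 lower. Map3k3 was at 69.2 FPKM in controls and 42.8 in the libraries labelled mutant (limma, adjusted p = 0.0566). Of 8 KLF cofactors none passed limma's test or limma-voom, and 1 was lower at an unadjusted p under 0.05. Of 5 glucocorticoid-responsive genes Fkbp5 was lower (35.4 to 15.6 FPKM, adjusted p = 0.0134), while Klf9 was not called. Of 16 immediate early genes Atf3 was higher (6.06 to 14.8 FPKM, adjusted p = 0.0358) and the heat shock genes Hspa1a (10.98 to 4.69, adjusted p = 0.0113) and Hspa1b (16.9 to 7.80, adjusted p = 0.0195) were lower. Their summed level was 953 to 1198 FPKM in controls and 1106 to 1230 in the libraries labelled mutant.

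Klf1 was the 1 of 6 tested other KLF and SP genes to pass, lower at 3.11 and 0.131 FPKM against 14.3 and 17.9 (adjusted p = 0.0274). It moved with other blood cell markers. All 5 B cell markers were lower (summed level 84.4 to 98.5 FPKM in controls and 20.6 to 26.5 in the libraries labelled mutant), as were 4 of 6 neutrophil markers (1764 to 2621 against 635 to 787), 1 of 6 erythroid markers (2195 to 2986 against 178 to 1210) and 1 of 4 megakaryocyte markers (29.1 to 106 against 9.45 to 12.1). Of 5 pericyte and stroma genes 3 were higher, led by Acta2 (1.25 to 9.57 FPKM), with a summed level of 31.6 to 40.0 against 62.4 to 72.0. Of 8 endothelial markers Pecam1 was higher and Tek and Kdr lower, at a summed level of 1609 to 1707 against 1585 to 1676 FPKM. None of 4 macrophage, 4 osteoblast and 1 T cell genes passed limma's test or limma-voom, and at an unadjusted p under 0.05 2 macrophage genes were higher and the T cell gene lower. limma-voom called 5 of the 6 erythroid and 6 of the 6 neutrophil markers lower. No marker of these cell types was at 0 in every library, and their part in the Klf6 result was not tested.

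**Figure D4:**
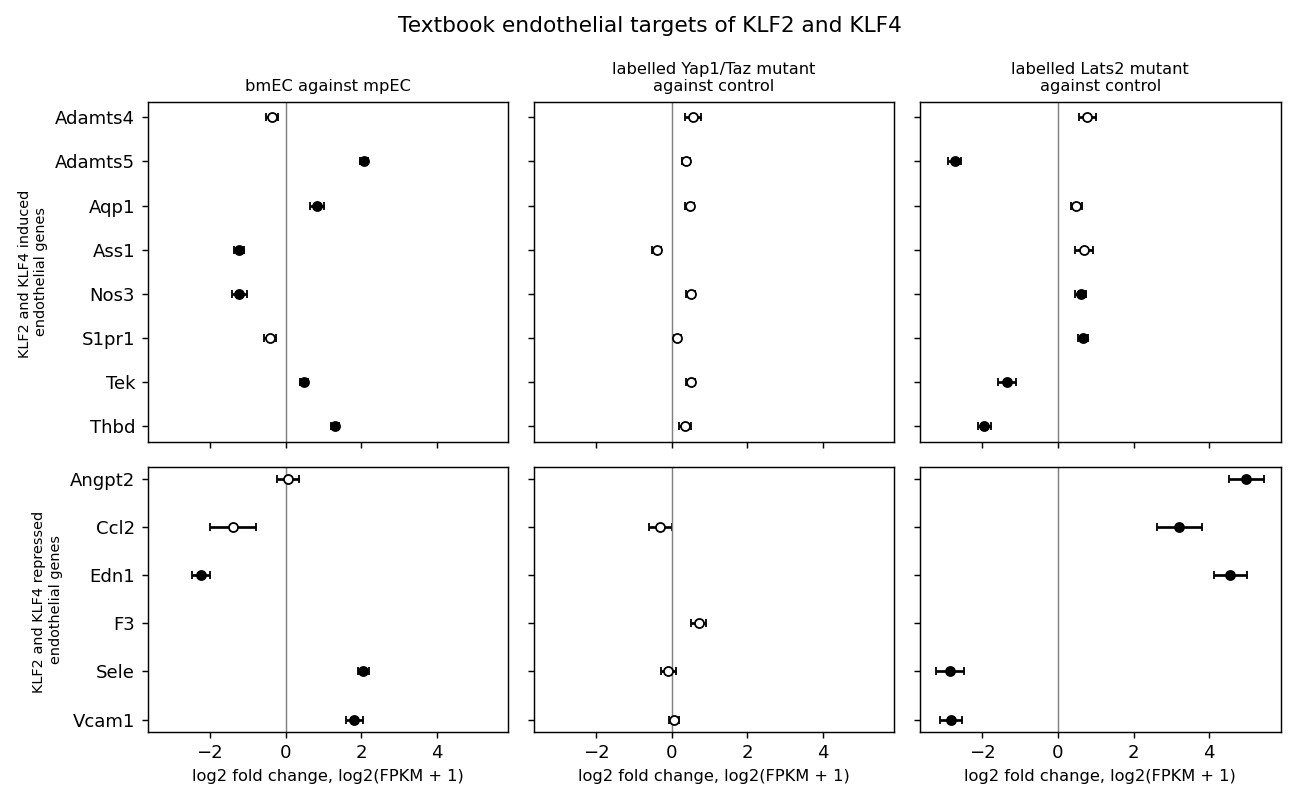
Fitted log2 fold change, with bars of 1 SE, of tested genes from the lists that KLF2 and KLF4 are known to induce (upper row) and repress (lower row) in endothelium, in the 3 comparisons, with filled points where the adjusted p is under 0.05. In the libraries labelled Lats2 mutant Angpt2 lies at 4.98 and Vcam1 at -2.83, and no gene is filled in the Yap1/Taz column.

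Each member's values were also set beside those of the 9069 genes tested in all 3 tables, over the 16 libraries after centring log2(FPKM + 1) on the mean of each table. The points share libraries and depth, and the correlations describe likeness only. Klf4 was most like Jund (Pearson r = 0.926), Fosb (0.877) and Nfkbiz (0.860), of which Jund and Fosb are on the immediate early list. Klf10 was most like Gimap4 (r = 0.934), Rasgrp3 (0.919) and Id3 (0.917), and Klf9 most like Sar1a (0.903), Csgalnact1 (0.902) and Tmed5 (0.901). Klf13 was most like Ebp (r = 0.907), Edf1 (0.889) and Snrpd3 (0.884), Klf11 like Gstk1 (0.904), Rab13 (0.868) and Ranbp9 (0.833), and Klf6 like Ywhaq (0.883), Ndufa4 (0.873) and Sdhb (0.865). Klf3 was most like Ttf1 (r = 0.887), Smarcad1 (0.855) and Tut1 (0.829), and Klf7 like Tulp4 (0.858), Crlf2 (0.778) and Ccdc107 (0.769). Klf2 had the weakest closest likeness, with Nploc4 (r = 0.768), Fbxo28 (0.723) and Vamp4 (0.698).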

How the data were processed

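The deposited values are FPKM per gene for each library. The authors aligned reads from stranded total RNA libraries with TopHat (GRCm38), made gene counts in HTSeq 0.6.1 and used DESeq2 for their own tests; the step from counts to FPKM and the strand setting are not given in the sources used here. Groups were taken from the labels, with each library as a replicate. Genes that averaged 1 FPKM or more over a comparison were tested on log2(FPKM + 1) with limma 3.58.1 under R 4.3.3, with a group term and an intensity trend, two-sided, adjusted by Benjamini-Hochberg over all genes tested, and called at an adjusted p under 0.05. The 3 tables were normalized separately, and tests were made only within a table. A fold change on this scale understates the change of low genes. Scripts were tested on simulated data. Recovered reads are FPKM times gene length over the value of 1 read, and 62.4 to 70.0% of low values fell within 0.02 of a whole read (4% by chance). Lists came from general knowledge, and of each at most 3 called genes a direction, by absolute fold change, are named; 1 list gene is not reported here. The members and lists were chosen with earlier results of these data known. Alternatives were other pseudocounts, filters, scalings, a robust fit, a replicate block, each library left out and, after the data were seen, limma-voom on recovered reads.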

Additional observations from a re-analysis of the deposited data

How the results depend on the processing

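Counts of called members are small, so single settings move them. No share of all genes stands beside the limma-voom counts below. For bmECs against mpECs, where 2 members were higher, the count was 0 to 3 when 1 library was left out (3 without bmEC replicate 3) and 0 at an adjusted p under 0.01 with an absolute log2 fold change over 0.5. For the libraries labelled Yap1/Taz mutant, where 1 was higher, it was 0 with no expression filter and at the stricter threshold, 2 with limma-voom and 0 to 2 when a library was left out. For the libraries labelled Lats2 mutant, where 1 was higher and 0 lower, the higher count was 0 with no filter and at the stricter threshold, 2 with limma-voom and 0 to 2 with a library left out, and the lower count was 1 with limma-voom and 0 to 1 with a library left out. The cause of these moves was not tested, except that a fit without a library has fewer samples and one with no filter adjusts over more genes. A lone library left in a Lats2 group was assumed to vary like the other group.

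No called member changed sign. The members that did were not called, near 0. Klf7 in bmECs was -0.029 (log2) under quantile normalization. With 1 library left out, the ranges of the log2 fold change for bmECs against mpECs were -0.29 to 0.16 for Klf2, -0.0052 to 0.17 for Klf3, -0.30 to 0.19 for Klf6, -0.054 to 0.087 for Klf7 and -0.12 to 0.084 for Klf11. For the Yap1/Taz libraries they were -0.089 to 0.011 for Klf6 and -0.042 to 0.21 for Klf13. For the Lats2 libraries they were -0.12 to 0.084 for Klf2, -0.081 to 0.28 for Klf7 and -0.29 to 0.066 for Klf9.

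Whether same-numbered libraries share animals is not given in the labels. Their deviations correlated at 0.307, 0.0876 and 0.102 for mpECs and bmECs and at -0.175, -0.123 and -0.155 for the Yap1/Taz libraries. With 2 libraries a group both Lats2 pairs must give the same value, here 0.0651, so it is 1 observation. With the replicate number as a block, 2, 1 and 1 members were called higher and 0 lower, as without it, with adjusted p of 0.0350 for Klf9, 0.0255 for Klf13, 0.0442 for Klf10 and 0.0243 for Klf6. Klf11 in the Lats2 libraries and Klf7 in the Yap1/Taz libraries had no value under the filter of 5 FPKM. Counting error limits the low members: Klf11 had as few as 57 recovered reads in a library.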
